A study of Mus musculus with 16 samples.

Results

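Collagen chain genes each encode 1 polypeptide chain of a collagen. They were taken as every gene of the deposited tables whose symbol reads Col, a type number, the letter a and a chain number, which gave 44 of 22322 genes. By type, 11 were fibrillar (types 1, 2, 3, 5, 11, 24 and 27), 8 were of basement membranes (types 4, 15 and 18), 6 were type 6 chains and 19 were of other types. The study sequenced mRNA from liver and white adipose tissue of DIO (diet-induced obese) mice given halofuginone or vehicle. Halofuginone, an inhibitor of the synthetase that loads proline onto its tRNA, went into the peritoneum at 100 μg/kg once in 2 days for 8 weeks. Libraries named H100 were halofuginone and libraries named HFD were taken as vehicle, which gave 5 against 5 liver and 3 against 3 fat libraries. Both arms are from obese mice, and no lean group is part of these data. The labels give no strain, sex, age or fat depot. They do not say that each library is a separate animal, so p-values measure the spread between these libraries.

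A collagen molecule winds 3 chains around each other, and the wound stretches are rich in glycine and proline. Fibrillar collagens of types 1, 3 and 5 form the fibres of connective tissue and of scar, type 4 forms the sheet of basement membranes, and type 6 forms beaded filaments at the cell surface. In liver, fibrillar chains are known to come mainly from stellate cells and portal fibroblasts, and in fat from fibroblasts and adipocyte progenitors. The pairs Col1a1 and Col1a2, Col4a1 and Col4a2, and the trio Col6a1, Col6a2 and Col6a3 encode chains that assemble into the same molecule.

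Library totals were 20309956 to 31980683 counts in liver and 17070614 to 21387799 in fat. Levels below are CPM (a gene's count relative to its TMM-scaled library total) or, between genes, the deposited FPKM, which also divides by gene length. The tissue labels matched their markers, with Alb at 94154 CPM in vehicle liver against 1.62 CPM in vehicle fat, and Adipoq at 2018 CPM in vehicle fat against 0.0154 CPM in vehicle liver. A library stood apart in each tissue. On the first principal component of liver (60.6% of the variance) the vehicle libraries scored −29.6 to −22.7, halofuginone 1 scored −20.7 and halofuginone 2 to 5 scored 24.9 to 49.2. In fat, vehicle 3 held 76.9 CPM summed over 5 epididymis markers, where the other 5 fat libraries held 0.837 to 7.13 CPM, and its summed adipocyte markers (5964 CPM) were the lowest of the 6. Counts of chains are therefore also given without these libraries, with the chains whose call differed. In bulk tissue, fewer cells of a type and less RNA per cell cannot be told apart.

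Before any comparison of arms, the 2 tissues held very different amounts and kinds of collagen mRNA. In vehicle fat the 44 genes together took 1.02 ± 0.104% of all counts (SD, n = 3), and in vehicle liver 0.0949 ± 0.00576% (SD, n = 5). Liver collagen mRNA was mostly Col18a1, a basement membrane chain whose end fragment is endostatin. Col18a1 stood at 144 ± 4.63 FPKM in vehicle liver, followed by Col4a1 at 16.7 ± 4.59, the fibril-associated Col14a1 at 11.3 ± 1.99, Col3a1 at 5.48 ± 2.10 and Col4a2 at 4.44 ± 0.946 FPKM (SD, n = 5). The order from Col18a1 to Col4a1 was separated by more than the spread between libraries, while Col3a1 and Col4a2 overlapped. Fat was led by type 4 and fibrillar chains, with Col4a1 at 475 ± 70.7, Col3a1 at 361 ± 159, Col4a2 at 208 ± 46.5, Col1a2 at 160 ± 35.5, Col6a2 at 141 ± 27.4 and Col6a1 at 119 ± 16.6 FPKM (SD, n = 3). In liver 6 of the 44 genes had a count of 0 in every library (Col2a1, Col6a4, Col9a1, Col11a1, Col19a1 and Col26a1, mostly cartilage or rare chains), which allows up to 3 counts or 0.0938 to 0.148 CPM. That limit covers counting error only.

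The comparison in liver asked which collagen chains differed between halofuginone and vehicle. Most of the chains that could be tested were lower under halofuginone. Col1a1 and Col3a1 fell by 1.77 and 1.71 on the log2 scale, the classical type 6 chains fell by 1.00 to 1.25, and the abundant Col18a1 and Col4a1 were not called. Against this, Col6a6, Col15a1 and Col11a2 rose. Of the 44 genes 21 passed the filter on low counts, and edgeR (quasi-likelihood, adjusted by Benjamini-Hochberg over 12311 genes) called 12 of them lower and 3 higher. Of all genes tested 10.5% were called lower and 12.7% higher, against 57.1% and 14.3% of these 21. Of the 21, 17 had a log2 fold change below 0, as did 48.3% of all genes, and their median was −0.75, where the median of all genes was 0.02. All 5 halofuginone libraries lay below all 5 vehicle libraries for 7 chains (33.3%), as they did for 6.55% of all genes, and above them for 1 chain, where the background was 5.13%. Scaling by total counts alone moved the median of all genes to 0.17 and the calls over all genes from 1558 higher and 1292 lower to 2789 and 838, and it left 12 chains lower and 3 higher. Without halofuginone 1, edgeR called 14 chains lower and 4 higher of 22, 12 lay wholly below vehicle and 4 wholly above, and the shares of all genes were 21.6%, 21.2%, 16.1% and 18.8%. As a share of the 22, both counts of 4 were below those of all genes. The calls added without halofuginone 1 were Col5a1 and Col27a1 lower and Col20a1 higher, of which Col27a1 and Col20a1 are named after their values were seen. Col20a1 then passed the filter through halofuginone libraries alone, so it had to be higher there to be tested.

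**Figure D1:**
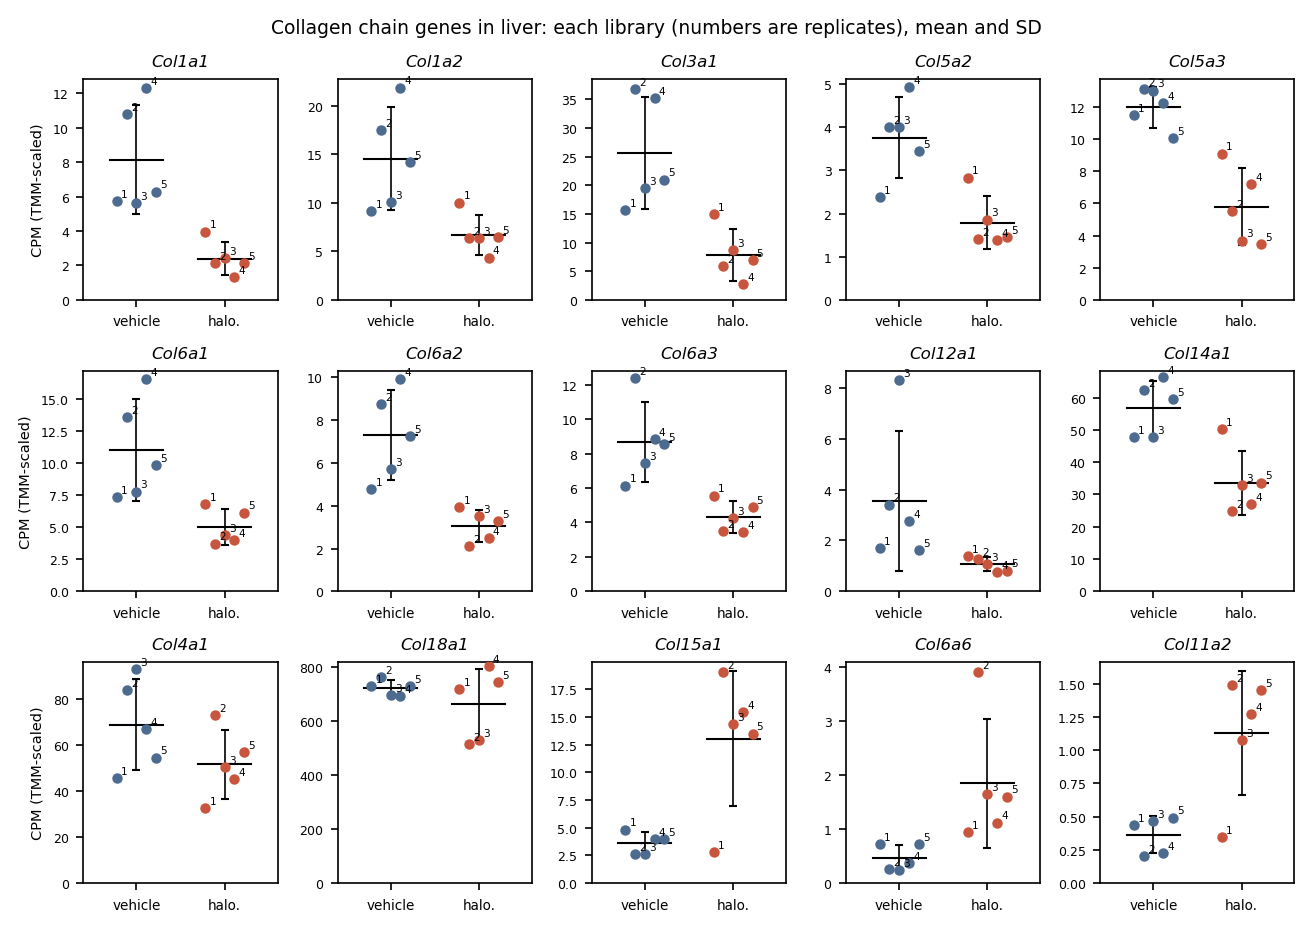
CPM of 15 collagen chain genes in liver, each point 1 library with its replicate number, with the mean and SD of 5 vehicle and 5 halofuginone libraries (linear axes from 0). Halofuginone 1 is the highest treated library for the 10 drawn chains that fell, and for Col15a1 (2.78 CPM) it lies within the vehicle range.

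Among fibrillar chains, 5 of 8 tested were called lower in liver and 1 higher, where 10.5% of all genes were called lower and 12.7% higher. Col1a1 (ENSMUSG00000001506), the chain present in 2 copies per type 1 molecule, was at 5.74, 10.8, 5.64, 12.3 and 6.29 CPM in the vehicle livers and at 3.97, 2.16, 2.43, 1.31 and 2.12 CPM under halofuginone. The groups did not overlap, and Col1a1 had the largest fall of the 21 chains. Its log2 fold change was −1.77 (SE 0.31, edgeR adjusted p 0.00633). Its partner Col1a2 (ENSMUSG00000029661) was at 9.15, 17.5, 10.1, 21.9 and 14.2 CPM in vehicle and at 10.03, 6.37, 6.33, 4.36 and 6.52 CPM under halofuginone. Here 4 of 5 treated libraries lay below all vehicle libraries and halofuginone 1 did not. Col1a2 fell by 1.12 on the log2 scale (SE 0.27, edgeR adjusted p 0.0164). Col3a1 (ENSMUSG00000026043), which forms fibres of its own and with type 1, was at 15.6, 36.8, 19.5, 35.2 and 20.98 CPM in vehicle and at 15.002, 5.93, 8.62, 2.82 and 6.89 CPM under halofuginone. All 5 treated libraries were below the vehicle range, halofuginone 1 only just. The log2 fold change of Col3a1 was −1.71 (SE 0.38, edgeR adjusted p 0.0137).

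The sequence before the start of Col1a2 and Col3a1 is shown because these 2 genes were lower together in both tissues. Both runs are the 250 bases before the RefSeq start in GRCm38.p6, chr6:4505368-4505617 on the + strand for Col1a2 and chr1:45311288-45311537 on the + strand for Col3a1, and capitals mark the motifs named after them.
Col1a2: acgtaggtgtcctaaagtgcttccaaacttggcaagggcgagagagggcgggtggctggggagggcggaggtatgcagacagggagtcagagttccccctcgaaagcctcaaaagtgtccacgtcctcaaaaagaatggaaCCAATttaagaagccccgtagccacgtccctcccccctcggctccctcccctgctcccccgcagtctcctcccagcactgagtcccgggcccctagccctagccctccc
Col3a1: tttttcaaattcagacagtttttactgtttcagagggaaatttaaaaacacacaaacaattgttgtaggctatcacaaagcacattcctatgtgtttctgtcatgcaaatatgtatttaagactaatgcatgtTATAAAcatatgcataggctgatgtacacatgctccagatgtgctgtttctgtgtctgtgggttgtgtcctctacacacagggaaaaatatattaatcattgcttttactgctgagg
CCAAT began 109 bases before the start of Col1a2, and TATAAA began 117 bases before the start of Col3a1, both on the + strand. Searched on both strands in windows of 300 bases (250 before and 50 after the start), CCAAT was found in 34.2% of the 38 windows of 35 collagen genes and in 37.4% of all 32851 windows. TATAAA was in 13.2% and 13.6%. TGATGNAA, the composite element of the amino acid response read by ATF4, was in 0 of 38 windows and in 3.97% of all. A match says only that these letters are present.

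Type 5 chains, which sit inside type 1 fibres and set their width, were also lower in liver. Col5a2 was at 2.38 to 4.93 CPM in vehicle and at 2.83, 1.42, 1.86, 1.39 and 1.45 CPM in halofuginone 1 to 5, a difference of −1.08 on the log2 scale (SE 0.25, edgeR adjusted p 0.0148). Col5a3 was at 10.03 to 13.1 CPM in vehicle and 3.46 to 9.09 CPM under halofuginone, with no overlap (−1.05, SE 0.24, edgeR adjusted p 0.0146). Col5a1 was not called, at 6.70 ± 1.96 and 4.42 ± 1.56 CPM (SD, n = 5) and −0.61 on the log2 scale (SE 0.25, edgeR adjusted p 0.0987). The missing call rested on halofuginone 1, at 7.10 CPM against 3.36 to 4.47 CPM in the other 4, and without it the log2 fold change was −0.85 (edgeR adjusted p 0.00737).

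The 3 classical type 6 chains fell together in liver, while a longer type 6 chain had the largest rise of the 21 chains. Among all genes tested in liver, 10.5% were called lower and 12.7% higher. Col6a1 (ENSMUSG00000001119), Col6a2 (ENSMUSG00000020241) and Col6a3 (ENSMUSG00000048126) are the classical chains of the beaded filament. Col6a1 was at 7.37, 13.6, 7.78, 16.6 and 9.87 CPM in vehicle and at 6.81, 3.73, 4.40, 4.01 and 6.14 CPM under halofuginone. Col6a2 was at 4.79, 8.77, 5.73, 9.93 and 7.28 CPM in vehicle and at 3.92, 2.12, 3.51, 2.51 and 3.28 CPM under halofuginone. Col6a3 was at 6.14, 12.4, 7.46, 8.85 and 8.55 CPM in vehicle and at 5.56, 3.50, 4.26, 3.43 and 4.88 CPM under halofuginone. For each of the 3 genes every treated library was below every vehicle library, halofuginone 1 included, and vehicle 1 was the lowest vehicle library. The falls were 1.14, 1.25 and 1.00 on the log2 scale (SE 0.25, 0.23 and 0.20, edgeR adjusted p 0.0134, 0.00720 and 0.00932). Col6a3 was not called by limma on log2 FPKM (adjusted p 0.0915 and 0.0980 at pseudocounts of 1 and 0.1).

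The 3 chains that rose in liver were at low levels in vehicle, and Col15a1 went from 0.758 ± 0.253 to 3.02 ± 1.51 FPKM (SD, n = 5). Under halofuginone its mean was above the 1.73 FPKM of Col3a1, but the ranges overlapped, at 0.53 to 4.19 and 0.52 to 3.27 FPKM. Col15a1 (ENSMUSG00000028339), a basement membrane chain related to Col18a1 and found around vessels and muscle fibres, was at 4.83, 2.60, 2.61, 4.00 and 3.93 CPM in vehicle and at 2.78, 19.1, 14.3, 15.5 and 13.5 CPM under halofuginone. Halofuginone 2 to 5 were all above vehicle, and halofuginone 1 was among the vehicle values. The log2 fold change was 1.85 (SE 0.40, edgeR adjusted p 0.0114). Col6a6 (ENSMUSG00000043719), a longer type 6 chain, was at 0.713, 0.250, 0.233, 0.373 and 0.721 CPM in vehicle, which is 5 to 22 counts, and at 0.944, 3.91, 1.65, 1.12 and 1.601 CPM under halofuginone, which is 19 to 105 counts. The groups did not overlap, but halofuginone 2 held more than 2 times any other library. Its log2 fold change was 1.97 (SE 0.46, edgeR adjusted p 0.0153). Col11a2, a minor fibrillar chain of cartilage, was at 0.364 ± 0.140 and 1.13 ± 0.466 CPM (SD, n = 5), with halofuginone 1 inside the vehicle range and the other 4 above it (1.62, SE 0.39, edgeR adjusted p 0.0173). Col6a6 passed the filter through the halofuginone group, so it had to be higher there to be tested.

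The sequence before the starts of Col15a1 and Col6a6 is shown because these 2 genes had opposite signs in liver and fat. The runs are again the 250 bases before the RefSeq start in GRCm38.p6, chr4:47207762-47208011 on the + strand and chr9:105828086-105828335 on the − strand, and neither holds any of the 3 motifs searched, so no letters are in capitals. The bases just after the start were found in 0 GENCODE M21 transcripts of Col15a1, against 2 of Col6a6, so the Col15a1 start is less certain.
Col15a1: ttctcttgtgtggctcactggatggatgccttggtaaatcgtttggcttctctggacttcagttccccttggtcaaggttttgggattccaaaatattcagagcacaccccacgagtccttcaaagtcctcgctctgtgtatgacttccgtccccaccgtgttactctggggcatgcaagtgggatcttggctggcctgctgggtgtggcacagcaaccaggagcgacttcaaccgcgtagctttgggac
Col6a6: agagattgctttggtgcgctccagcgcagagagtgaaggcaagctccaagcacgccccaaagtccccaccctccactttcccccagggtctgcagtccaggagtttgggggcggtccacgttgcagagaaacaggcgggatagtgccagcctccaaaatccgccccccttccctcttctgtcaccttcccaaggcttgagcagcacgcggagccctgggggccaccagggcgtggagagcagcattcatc

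Of the other basement membrane chains tested in liver, Col4a2 fell and Col18a1, Col4a1 and Col4a5 were not called. Col18a1 was at 727, 761, 696, 691 and 726 CPM in vehicle and at 717, 514, 529, 802 and 743 CPM under halofuginone, so the treated libraries spread to both sides of vehicle. It differed by −0.12 on the log2 scale (SE 0.15, edgeR adjusted p 0.566), and by 0.02 when libraries were scaled by total counts alone. Col4a1 was at 68.7 ± 19.8 and 51.6 ± 14.98 CPM (SD, n = 5), with overlapping groups (−0.41, SE 0.23, edgeR adjusted p 0.212). Its partner Col4a2 fell from 30.2 ± 6.68 to 19.3 ± 2.48 CPM, with 4 of 5 treated libraries below vehicle (−0.64, SE 0.16, edgeR adjusted p 0.0175), a call that limma on log2 FPKM did not make (adjusted p 0.0596 and 0.0597). Col4a5, a chain of specialised membranes such as that of the kidney filter, was at 0.749 ± 0.245 and 0.577 ± 0.258 CPM and was not called (edgeR adjusted p 0.470). With Col18a1 as most of the sum, the whole set took 0.0949 ± 0.00576% of counts in vehicle and 0.0883 ± 0.00769% under halofuginone (SD, n = 5), while the summed share of fibrillar chains was 0.00727 ± 0.00214% and 0.00353 ± 0.00107%.

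Of 9 fibril-associated chains, which decorate fibres made by others, 3 were tested in liver and all 3 were called lower, as were 10.5% of all genes. Col14a1 was at 47.6, 62.3, 47.7, 66.2 and 59.4 CPM in vehicle and at 50.1, 24.98, 32.8, 26.9 and 33.7 CPM under halofuginone. Halofuginone 1 was inside the vehicle range and the other 4 were below it (−0.75, SE 0.18, edgeR adjusted p 0.0178), and 1 fit of all groups did not call it (edgeR adjusted p 0.0602). Col12a1 was at 1.70, 3.41, 8.30, 2.76 and 1.64 CPM in vehicle and at 1.39, 1.27, 1.07, 0.772 and 0.819 CPM under halofuginone. The groups did not overlap, though vehicle 3 was far above the rest (−1.73, SE 0.44, edgeR adjusted p 0.0208). Without vehicle 3 it was −1.17 (edgeR adjusted p 0.0272), and its call was lost without halofuginone 3 or 5 (edgeR adjusted p 0.0524 and 0.0540). Col16a1 fell by 0.91 (SE 0.24, edgeR adjusted p 0.0214), a call lost without halofuginone 5 or vehicle 2 or 4 (edgeR adjusted p 0.0563, 0.0512 and 0.0518). Col13a1, a transmembrane collagen, was at 8.01 ± 1.49 and 9.24 ± 0.740 CPM (SD, n = 5) and was not called (0.21, SE 0.14, edgeR adjusted p 0.291).

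Markers of cells that make collagen, and of other cells of the tissue, were read in the same livers, where 10.5% of all genes were called lower and 12.7% higher. Of 8 smooth muscle and pericyte markers 6 were tested and 4 fell, and their summed level was 21.4 to 29.9 CPM in vehicle and 11.4 to 15.7 CPM under halofuginone, with no overlap. Tagln, an actin-binding protein of contractile cells, fell most among the 3 best known of them, from 6.22 ± 0.924 to 2.08 ± 0.737 CPM (−1.59, SE 0.23, edgeR adjusted p 0.00326), and Acta2 (smooth muscle actin) fell by 0.71 and Myh11 by 0.56 (edgeR adjusted p 0.0198 and 0.0405). Of 10 stellate cell markers 2 fell, with overlapping sums of 245 to 293 and 186 to 263 CPM. The vitamin A enzyme Lrat, which defines quiescent stellate cells, was at 15.4 ± 1.31 and 13.6 ± 2.74 CPM (edgeR adjusted p 0.334), and Pdgfrb fell by 0.64 (SE 0.16, edgeR adjusted p 0.0185). Of 11 fibroblast and progenitor markers 8 were tested and 2 fell, with sums of 130.0 to 154 and 78.7 to 133 CPM. Hepatocyte markers summed to 127557 to 141587 CPM in vehicle and 52340 to 119498 CPM under halofuginone, with no overlap, and 1 of 8 fell (Ttr) and 1 rose (Tat). Most of that sum was Alb, at 94154 ± 5244 and 51781 ± 22090 CPM (SD, n = 5), which was not called (edgeR adjusted p 0.0742). Apoa1 and Cyp2e1, with lower means, and Serpina1c, Cps1 and Fgb overlapped between arms and were not called. Erythrocyte markers summed to 123 to 208 and 66.3 to 119 CPM, and 1 of 4 fell. That was Alas2, at 89.4 ± 10.5 and 41.0 ± 14.2 CPM (SD, n = 5), while the globin markers were not called and overlapped between arms. Of 8 adipocyte markers 4 were tested and 3 fell (Lipe, Cfd and Pparg), with overlapping sums of 67.2 to 146 and 25.1 to 73.7 CPM. In vehicle liver that sum was mostly Cidec (57.0 CPM, not called), Pparg, Lipe and Cfd. Adipoq, Plin1, Retn and Lep had group means of 0.0154 CPM or less and were not tested, so the sum does not count adipocytes there. Of 8 endothelial markers 2 fell and 2 rose, with overlapping sums of 241 to 287 and 241 to 310.3 CPM. Of these 7 lists, Lep of the adipocyte list was the only marker at 0 in all livers. The part of these cells in the collagen values was not tested.

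The comparison in white adipose tissue asked the same question. Collagen chains were lower under halofuginone across fibrillar, type 6 and basement membrane chains, with a median log2 fold change of −1.07, but no single gene passed the adjusted threshold with 3 libraries against 3. Of the 44 genes 34 passed the filter. The edgeR test called 0 of 34, as it called 0 of 14030 genes. At an unadjusted p under 0.05, 17 of 34 chains were lower (50%) and 0 higher, where 7.91% of all genes were lower and 5.50% higher. The groups did not overlap for 19 chains lower under halofuginone (55.9%), against 10.4% of all genes, and for 1 chain higher (10.2% of all genes). The median log2 fold change over all genes was 0.01. With DESeq2, 10 of 33 chains were called lower, where 3.22% of all genes were, and limma on log2 FPKM called 0. Without vehicle 3, edgeR again called 0 chains of 35, and the median was −0.82. At an unadjusted p under 0.05, 18 of these 35 were lower, as were 7.83% of all genes. All treated libraries lay below vehicle for 21 of them, as they did for 17.1% of all genes.

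**Figure D2:**
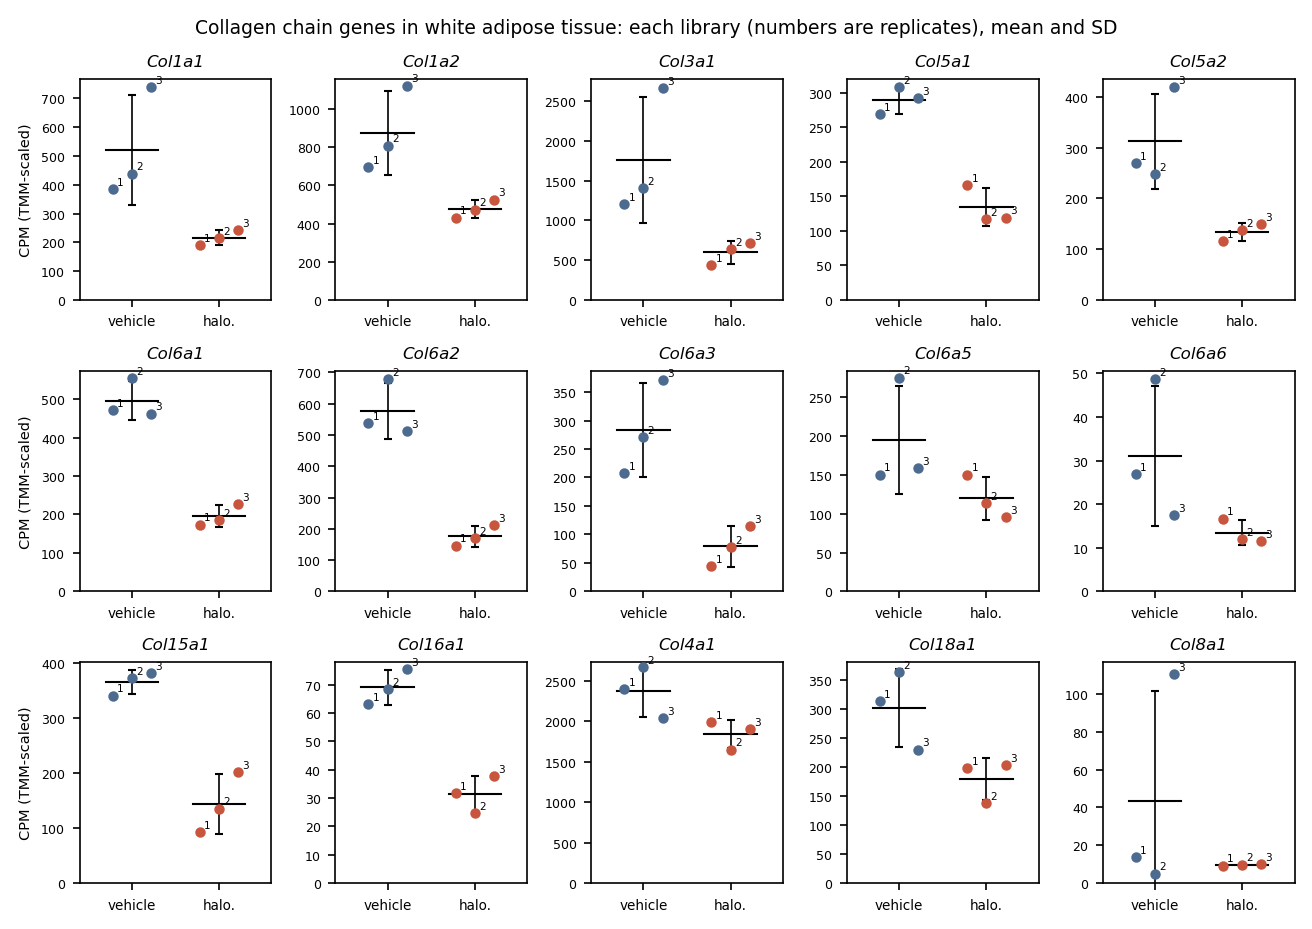
CPM of 15 collagen chain genes in white adipose tissue, each point 1 library with its replicate number, with the mean and SD of 3 vehicle and 3 halofuginone libraries (linear axes from 0). The groups are apart for the fibrillar and type 6 chains drawn, and Col8a1 shows 111 CPM in vehicle 3 alone.

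All 5 type 6 chains tested in fat were lower, each with the groups apart. Of all genes tested in fat, 10.4% had groups apart and lower under halofuginone. Col6a2 was at 538, 679 and 512 CPM in vehicle and at 147, 170.2 and 213 CPM under halofuginone, and Col6a1 was at 471, 555 and 462 CPM and at 174, 186 and 227 CPM. For both genes the lowest vehicle library held at least 2 times the highest treated one. The log2 fold changes were −1.71 (SE 0.21) and −1.34 (SE 0.18), each with an edgeR adjusted p of 0.0954, the smallest of any chain in fat. Col6a3, whose end fragment endotrophin is released by adipose tissue, was at 207, 271 and 371 CPM in vehicle and at 44.1, 78.1 and 115 CPM under halofuginone. Its groups were apart, its log2 fold change was the lowest of the 5 type 6 chains tested at −1.84 (SE 0.39), and its edgeR adjusted p was 0.162. The longer chains were less separated. Col6a6 was at 26.9, 48.8 and 17.5 CPM and at 16.7, 12.1 and 11.6 CPM (−1.21, SE 0.38, edgeR adjusted p 0.276). Col6a5 was at 150.07, 275 and 159 CPM and at 150.05, 113 and 96.0 CPM, so its groups were apart by the smallest margin (−0.70, SE 0.29, edgeR adjusted p 0.370). Together the type 6 genes took 0.155 ± 0.0268% of counts in vehicle fat and 0.0598 ± 0.00776% under halofuginone (SD, n = 3).

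Of 9 fibrillar chains tested in fat, 8 had a log2 fold change below 0 and 7 had groups apart, all lower under halofuginone. Among all genes tested, 48.8% were below 0 and 10.4% had groups apart and lower. Col1a1 was at 386, 439 and 740.2 CPM in vehicle and at 191, 216 and 242 CPM under halofuginone. Col1a2 was at 696, 809 and 1124 CPM and at 432, 474 and 526 CPM. Col3a1 was at 1206, 1406 and 2665 CPM and at 435, 640.2 and 719 CPM. In all 3 genes the groups were apart and vehicle 3 was the highest library. The log2 fold changes were −1.27 (SE 0.28), −0.88 (SE 0.22) and −1.56 (SE 0.36), with edgeR adjusted p-values of 0.168, 0.210 and 0.179. Without vehicle 3 they were −0.93, −0.66 and −1.12 (edgeR adjusted p 0.170, 0.248 and 0.198). Of type 5, Col5a1 was at 269, 309 and 292 CPM in vehicle and at 167, 117 and 119 CPM under halofuginone, with the smallest SE of the fibrillar chains named (−1.11, SE 0.19, edgeR adjusted p 0.129). Col5a2 was at 312 ± 93.8 and 134 ± 17.5 CPM (SD, n = 3), and Col5a3, a type 5 chain that is prominent in adipose tissue, at 372 ± 73.3 and 237 ± 40.7 CPM. Both had groups apart, with log2 fold changes of −1.22 (SE 0.24) and −0.65 (SE 0.21).

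Of the basement membrane chains 8 of 8 were tested in fat, and 5 had groups apart, all lower under halofuginone, as did 10.4% of all genes. Col15a1 was at 340.4, 373 and 381 CPM in vehicle and at 93.0, 135 and 202 CPM under halofuginone, with no overlap (−1.35, SE 0.29, edgeR adjusted p 0.162). Col18a1 was at 314, 363 and 230.2 CPM and at 198, 137 and 203 CPM (−0.75, SE 0.24, edgeR adjusted p 0.278). Those 2 chains carry the sequences of restin and endostatin. Col4a1 was at 2395, 2668 and 2043 CPM and at 1986, 1649 and 1901 CPM (−0.36, SE 0.19, edgeR adjusted p 0.455), and Col4a2 was at 1366 ± 254 and 1019 ± 171 CPM with overlapping groups (−0.42, SE 0.22, edgeR adjusted p 0.450). Scarcer type 4 chains had log2 fold changes of −1.10 for Col4a3, −1.28 for Col4a5 and −1.04 for Col4a6 (SE 0.43, 0.44 and 0.60), of which Col4a6 overlapped. Without vehicle 3 the groups of Col4a2 and Col4a6 were apart, Col4a1 and Col4a2 passed an unadjusted p of 0.05 and Col4a3 no longer did. All 8 basement membrane genes had log2 fold changes below 0, as did 48.8% of all genes.

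Of the 12 other chains tested in fat, 7 were below 0 and 5 above, where 48.8% of all genes were below 0. Col8a2, among the 7, passed the filter through vehicle libraries alone, so it had to be higher there to be tested. Col17a1, among the 5, passed through halofuginone libraries alone, so the same holds for it in that group. Col16a1, a fibril-associated chain, was at 63.2, 68.5 and 75.5 CPM in vehicle and at 31.7, 24.6 and 37.8 CPM under halofuginone (−1.14, SE 0.19, edgeR adjusted p 0.127). The transmembrane chain Col23a1 was at 14.6, 24.2 and 11.8 CPM and at 8.38, 5.53 and 9.57 CPM (−1.11, SE 0.34, edgeR adjusted p 0.261). Groups were apart for both. Col14a1 (52.0, 45.8 and 62.2 against 14.2, 29.8 and 50.02 CPM) and Col12a1 (39.0, 21.1 and 51.3 against 28.1, 29.2 and 34.2 CPM) overlapped, with log2 fold changes of −0.77 (SE 0.42) and −0.28 (SE 0.31). Col8a1, a network-forming chain of vessel walls, was at 13.8, 4.99 and 111 CPM in vehicle and at 9.23, 9.76 and 10.1 CPM under halofuginone. Its log2 fold change of −2.15 (SE 1.03) came from vehicle 3 and was 0.05 without it. Its partner Col8a2 was at 0.959, 7.66 and 12.1 CPM and at 0.453, 0.325 and 3.73 CPM (−2.19, SE 1.16), and single libraries left out moved this to −4.10 (without halofuginone 3) or −1.52 (without vehicle 3). Col28a1, Col13a1 and Col11a2 had log2 fold changes of −0.10, 0.27 and 0.06 (SE 0.31, 0.78 and 0.42), and their direction changed with single libraries.

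**Figure D3:**
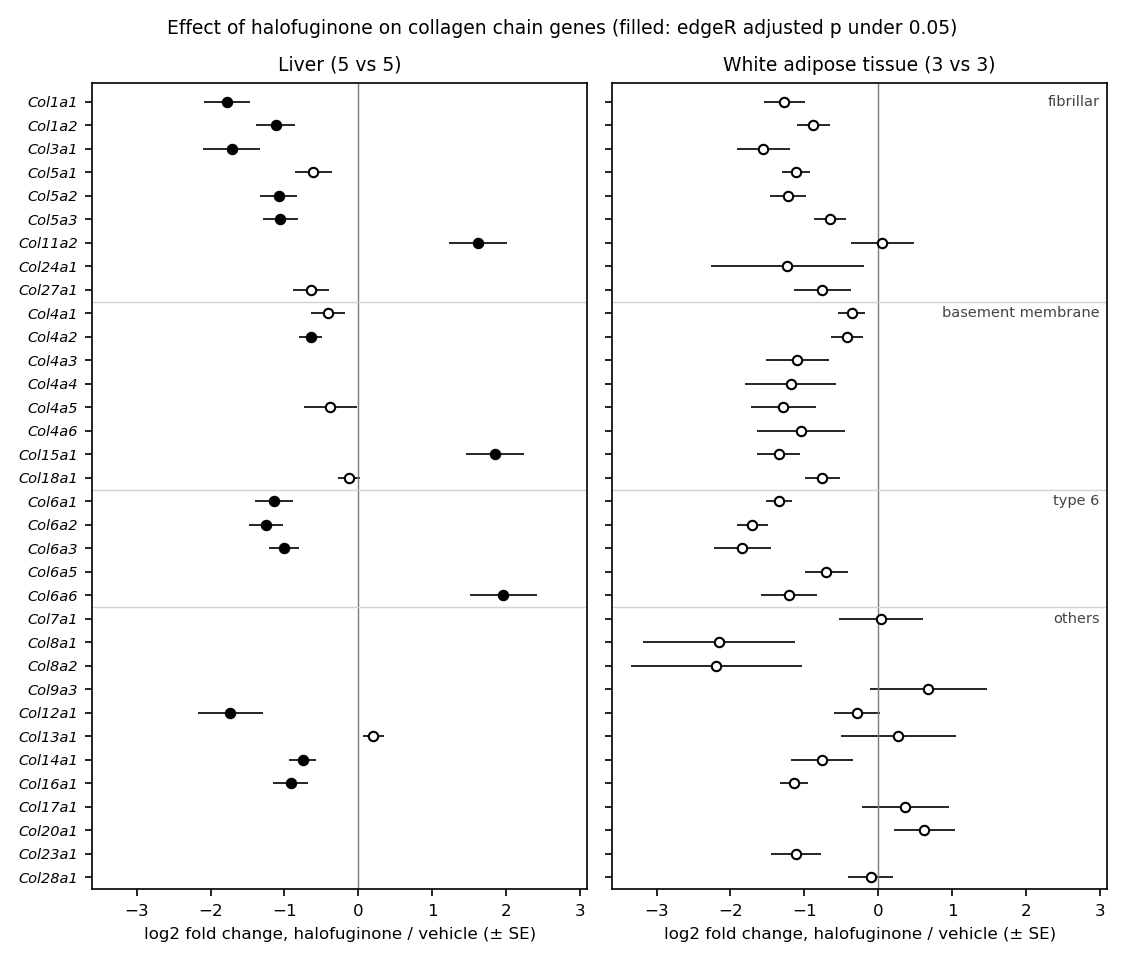
log2 fold change of halofuginone over vehicle with its SE for every collagen chain gene tested, grouped by class, in liver (5 against 5) and white adipose tissue (3 against 3); filled points have an edgeR adjusted p under 0.05. In liver 12 filled points lie below 0 and 3 above, and in fat 28 of 34 open points lie below 0.

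Cell markers in fat moved with the collagen genes in part. At an unadjusted p under 0.05, 7.91% of all genes in fat were lower and 5.50% higher. The 11 fibroblast and progenitor markers summed to 1251 to 1804 CPM in vehicle and 943 to 1268 CPM under halofuginone, an overlap, and 4 had an unadjusted p under 0.05 with a lower level and 1 with a higher one. Dpt (dermatopontin, which binds collagen fibres) was at 582 ± 158 and 271 ± 10.98 CPM (SD, n = 3), while the receptor Pdgfra was at 126 ± 42.0 and 107 ± 7.81 CPM. The list for stellate cells, a liver cell type, summed to 499.6 to 630 and 345 to 453 CPM, with no overlap and 1 of 7 lower at that p. In fat that sum was mostly Ecm1, Rgs5 and Pdgfrb. Lrat, Lhx2 and Hand2 had group means of 0.229 CPM or less and were not tested, so the sum does not count stellate cells there. Macrophage markers summed to 2466 to 4248 CPM in vehicle and 1606 to 1985 CPM under halofuginone, and skeletal muscle markers to 92.5 to 174 and 52.3 to 61.8 CPM, both without overlap. Of 6 macrophage markers 5 were tested and 4 had a lower level at an unadjusted p under 0.05, and of 6 skeletal muscle markers 1 did. That was Acta1, at 118 ± 41.9 and 48.9 ± 4.57 CPM (SD, n = 3), which made up most of the muscle sum. The other muscle markers had group means of 1.03 to 2.10 CPM and overlapped between arms. Endothelial markers overlapped, at 549 to 1601 and 1201 to 1714 CPM, with the lowest sum in vehicle 3. Adipocyte markers (5964 to 12536.5 and 8671 to 13368 CPM) and smooth muscle and pericyte markers (549 to 1287 and 892 to 1051 CPM) also overlapped. At an unadjusted p under 0.05, 2 of 8 adipocyte markers were higher and 1 of 8 smooth muscle and pericyte markers was lower. No marker of these lists was at 0 in all fat libraries, and their part in the collagen values was not tested.

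The drug effect was then compared between the tissues, as fat minus liver in 1 fit of all 16 libraries. That fit treats the libraries as independent, though the labels do not say whether liver and fat came from the same mice. Of 21 chains tested in both tissues 17 had a lower level in both, 2 (Col11a2 and Col13a1) had a log2 fold change above 0 in both, and 2 (Col15a1 and Col6a6) were higher in liver and lower in fat. The edgeR test of the difference called those 2 of 35 chains, where 0.949% of 14853 genes were called. Col15a1 differed by −3.23 (SE 0.59, edgeR adjusted p 0.0229), and Col6a6 by −3.21 (SE 0.66, edgeR adjusted p 0.0364). Of the 8 libraries of these tissues under halofuginone, all 3 of fat lay below vehicle for both genes, all 5 of liver lay above vehicle for Col6a6, and 4 of 5 did so for Col15a1. The call of Col15a1 was lost without liver halofuginone 3, liver vehicle 2 or fat halofuginone 1 or 2 (edgeR adjusted p 0.0502 to 0.0654). That of Col6a6 was lost without liver halofuginone 3 or 5, liver vehicle 2, 3 or 4, or fat vehicle 1 or 2 or any fat halofuginone library (edgeR adjusted p 0.0525 to 0.0925). The vehicle levels also differed, at 3.59 CPM in liver and 365 CPM in fat for Col15a1 and at 0.458 and 31.0 CPM for Col6a6. For the other 33 chains the difference was not called, though without liver halofuginone 1 Col11a2 was called too (−1.82, edgeR adjusted p 0.0401). For Col6a3 it was −0.85 (SE 0.40, edgeR adjusted p 0.317), for Col12a1 1.44 (SE 0.61, edgeR adjusted p 0.262) and for Col18a1 −0.65 (SE 0.29, edgeR adjusted p 0.284).

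**Figure D4:**
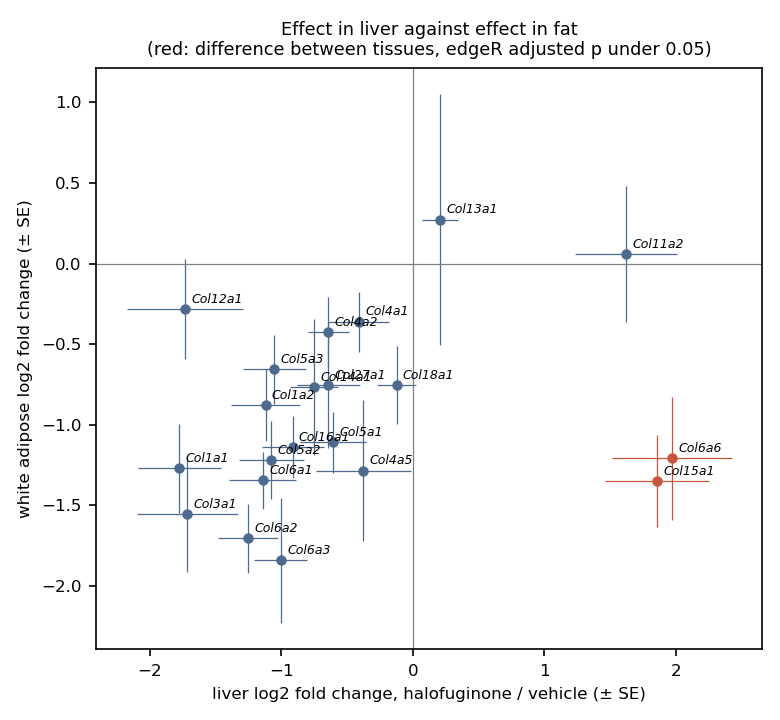
log2 fold change under halofuginone in liver (x axis) and in white adipose tissue (y axis) with SE bars for the 21 collagen chain genes tested in both tissues; red points have an edgeR adjusted p under 0.05 for the difference. Most points lie below 0 on both axes, and Col15a1 and Col6a6 lie apart at the lower right.

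The balance of partner chains was read as the ratio of their FPKM within a library, which needs no scaling between libraries, and of 6 pairs only Col1a1 to Col1a2 was apart between arms in both tissues. These ratios are descriptions with no test. The gene length in FPKM can differ by library, so ratios of counts can differ from them. Liver Col4a1, for one, was at 16.7 and 16.8 FPKM in vehicle and halofuginone but at 68.7 and 51.6 CPM. The ratio of Col1a1 to Col1a2 was 0.568, 0.560, 0.503, 0.506 and 0.399 in vehicle liver and 0.355, 0.310, 0.350, 0.272 and 0.296 under halofuginone. In fat it was 0.497, 0.487 and 0.592 in vehicle and 0.400, 0.408 and 0.413 under halofuginone. In both tissues every treated library was below every vehicle library, halofuginone liver 1 included. The mean difference of the log2 ratio was −0.68 in liver and −0.36 in fat, and leaving out single libraries gave −0.76 to −0.62 and −0.42 to −0.27. The ratio of Col5a1 to Col5a2 was 2.21 to 3.59 in vehicle liver and 4.00 to 5.22 under halofuginone, and it overlapped in fat. The ratio of Col6a1 to Col6a2 was 0.799 to 0.883 in vehicle fat and 1.05 to 1.17 under halofuginone, and it overlapped in liver. Col4a1 and Col4a2 lie on opposite strands of chromosome 8, with starts 21 bases apart and first bases that overlap (RefSeq GRCm38.p6). Their ratio overlapped in both tissues, at 2.71 to 4.61 and 2.79 to 8.08 in liver and 2.13 to 2.47 and 2.05 to 2.66 in fat. The ratios of Col3a1 to Col1a1 and of Col6a3 to Col6a1 overlapped in both tissues as well.

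**Figure D5:**
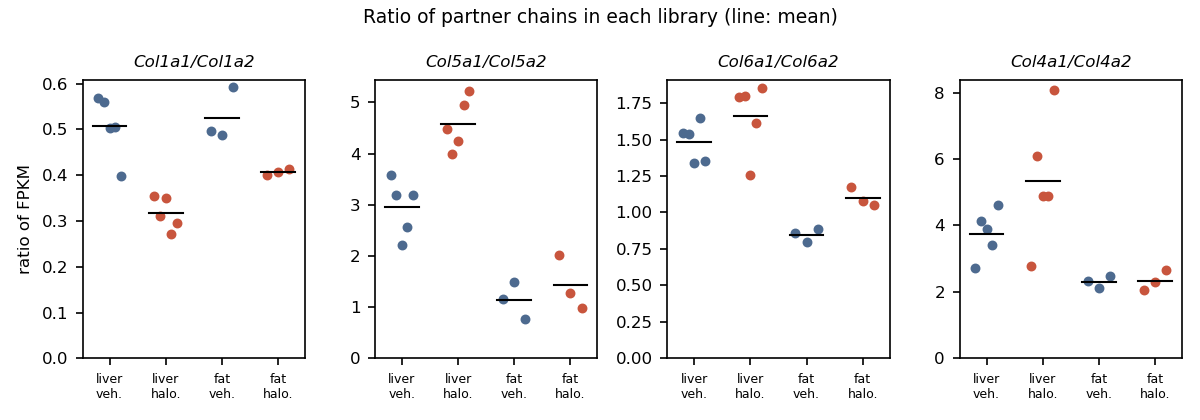
Ratio of the FPKM of 4 pairs of partner chains in each library, by tissue and arm, with the mean as a line (linear axes from 0). The Col1a1 to Col1a2 ratio is lower in every halofuginone library of both tissues, at 0.272 to 0.355 in liver and 0.400 to 0.413 in fat.

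Genes that fold, trim, link, bind and degrade collagen were read from a list of 75, sorted by role. In liver 67 were tested and edgeR called 19 lower and 3 higher, with a median log2 fold change of −0.30. Of all genes tested in liver, 10.5% were called lower and 12.7% higher. In fat 72 were tested, 0 were called, and 20 had a lower and 1 a higher level at an unadjusted p under 0.05, with a median of −0.24, where 7.91% and 5.50% of all genes did. For the fibril-binding proteins 5 of 9 fell in liver, and 6 of 9 in fat had a lower level at an unadjusted p under 0.05. Of the 8 collagen receptors 6 were tested in liver and 0 were called, with 1 at an unadjusted p under 0.05.

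In liver, Serpinh1 (HSP47, the chaperone particular to procollagen) went from 24.4 ± 9.07 to 9.64 ± 2.56 CPM (SD, n = 5), a fall of 1.34 on the log2 scale (SE 0.26, edgeR adjusted p 0.00918). P4ha1, a subunit of the enzyme that hydroxylates collagen prolines, went from 25.95 ± 7.81 to 12.4 ± 2.71 CPM (−1.07, SE 0.21, edgeR adjusted p 0.00868). The cross-linking enzyme Loxl2 went from 6.25 ± 1.25 to 2.52 ± 0.544 CPM (−1.31, SE 0.19, edgeR adjusted p 0.00317). In these 3 genes all 5 treated libraries lay below vehicle. They also did for the fibril-binding Sparc (−0.58, SE 0.12), Postn (−0.76, SE 0.14) and Thbs2 (−0.84, SE 0.19) and for the laminin chain Lamb1 (−0.57, SE 0.14), with edgeR adjusted p-values of 0.0105, 0.00719, 0.0138 and 0.0194. Lamb1 was lost without halofuginone 3 (edgeR adjusted p 0.0528) and with limma (adjusted p 0.0655 and 0.0684), and Postn and Thbs2 in 1 fit of all groups (edgeR adjusted p 0.144 and 0.0531). P3h1, which modifies a single proline of fibrillar chains, rose from 10.3 ± 1.00 to 17.6 ± 4.75 CPM (0.78, SE 0.18, edgeR adjusted p 0.0145), with overlapping groups. The other two that rose, Sec23a and Sec13 of the export coat, are named after their values were seen (0.55 and 0.65, SE 0.15 and 0.18).

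In fat the list's smallest p-value was that of Lama2, a laminin chain, at 111 ± 7.86 and 60.3 ± 2.42 CPM (SD, n = 3, −0.88, SE 0.14, edgeR adjusted p 0.107). Sparc was at 4629 ± 1334 and 2115 ± 251 CPM (−1.13, SE 0.27) and Fn1 (fibronectin) at 844 ± 298 and 383 ± 122 CPM (−1.14, SE 0.33). The procollagen proteinase Bmp1 (−0.87, SE 0.21), its enhancer Pcolce (−1.09, SE 0.29), Loxl2 (−1.34, SE 0.34), the fibroblast protease Fap (−1.17, SE 0.28) and the protease inhibitor Timp2 (−0.63, SE 0.15) also had groups apart. The edgeR adjusted p-values of these 7 genes ran from 0.188 to 0.249, so none was called.

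The share of proline codons was counted because the drug acts on the charging of proline tRNA. In the longest coding transcript of each gene (GENCODE M21), CCN codons made up a median of 16.2% of the codons of the 44 genes, from 4.503% in Col6a6 and 5.04% in Col6a5 to 23.5% in Col4a5. Over 14383 tested genes the median was 5.49%, and 9.44% was the 90th percentile. Spearman's rho with the log2 fold change was −0.01 over 21 chains in liver and −0.17 over 34 in fat, a description across genes that share the same libraries, with no test.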

How the data were processed

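Poly(A) RNA of liver and white adipose tissue was sequenced as NEBNext libraries, per the labels' protocols. The submitters' processing notes name fastp 0.18.0, Bowtie2 2.2.8, HISAT2, StringTie 1.3.1, RSEM and the mm39 build, with no role given. The authors deposited whole-number counts and FPKM per gene and library. How the counts were made is not given in the sources used here; 1 to 10 genes per liver library and 9 to 31 per fat library have an FPKM above 0 but a count of 0, and the whole numbers may be rounded estimates. Strand use is not stated, so overlapping and antisense genes cannot be told apart. No column was left unmapped, and no 2 libraries of a group were alike within sampling noise (chi-square per degree of freedom at least 29.7 in liver and 50.5 in fat).

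Counts were tested per tissue with edgeR 4.0.16 (R 4.3.3: filterByExpr, TMM, quasi-likelihood test, Benjamini-Hochberg adjustment over all genes, threshold 0.05), and the tissue contrast in 1 fit of all 16 libraries. A group is called apart, or not overlapping, where all its CPM lie on 1 side of the other group. Alternatives were DESeq2 1.42.0, limma 3.58.1 on log2(FPKM + 1 or 0.1) with genes of at least 1 FPKM, other scalings and filters, a replicate block, 1 fit of all groups and single libraries left out. The self-test used simulated counts.

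The genes and lists were chosen with earlier results of these data known. Named chains were 14 core chains, every other chain called in a tissue or contrast or with an unadjusted p under 0.05 in fat, and those with a mean of at least 1 FPKM in a group; the other 17 of 44 are given by count. Named pathway genes were up to 8 per tissue with the smallest p among those at 5 CPM or more. The filter kept Col6a6 in liver through halofuginone libraries alone, and in fat Col8a2 through vehicle and Col17a1 through halofuginone alone. Libraries are not paired by the labels.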

Additional observations from a re-analysis of the deposited data

Results flagged for a closer look

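In 56 groups of 4 or more libraries examined for a library far from the rest, 2 were found, where chance gives 2.8. Col6a6 in liver halofuginone 2 was at 3.91 CPM, with the next highest of its group at 1.65 CPM, a gap of 0.764 of the group's range against a limit of 0.71. Col12a1 in liver vehicle 3 was at 8.30 CPM, with the next at 3.41 CPM, a gap of 0.735 of the range. The drug effect differed between fat and liver by −3.21 on the log2 scale for Col6a6 and by −3.23 for Col15a1, by the edgeR test of the difference itself (adjusted p 0.0364 and 0.0229).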

How the results depend on the processing

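Of the values for single genes, 1007 kept direction and side of the threshold, 30 passed it newly, 35 lost it and 15 changed sign. In liver, both limma settings called 7 chains of 13, where edgeR called 15 of 21, and the median was −0.46 in 1 fit of all groups and −0.37 with limma at a pseudocount of 1. Liver Col18a1 was 0.020 with library size alone and 0.0030 and 0.0029 with limma at a pseudocount of 1 and 0.1. In fat, DESeq2 called 10 chains of 33 lower and 1 fit of all groups called 6 of 35 lower. Of all genes, they called 457 of 14211 and 246 of 14853 lower. The fat median was −0.78 with limma at a pseudocount of 1, and Col12a1 was 0.040 and 0.058 with limma at a pseudocount of 1 and 0.1. Leaving out single libraries gave a fat median of −1.16 to −0.80, and −0.15 to 0.27 for Col11a2, −0.56 to 0.025 for Col12a1, −0.10 to 1.10 for Col13a1, −0.46 to 0.13 for Col28a1 and −2.68 to 0.048 for Col8a1. The cause was not tested. Over all genes, liver calls numbered 2850, and 1275 to 5312 without single libraries (fewest without halofuginone 3, most without halofuginone 1). In fat the 0 calls of edgeR became 671 with DESeq2, 334 in 1 fit of all groups and 17 with limma at a pseudocount of 1. The tissue contrast called 0 to 3 chains without single libraries, and 686 genes with DESeq2 against 141.

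Same-numbered libraries correlated at −0.189 to 0.121 in liver and −0.598 to 0.184 in fat, and 1 of 5 and 0 of 3 matched their own number best. With so few libraries this check cannot tell whether same-numbered libraries share anything else. With a replicate block, liver gave 10 chains lower and 1 higher of 21, and 1011 genes lower and 890 higher of 12311. The contrast then gave 0 chains and 23 genes. Col1a2, Col11a2, Col15a1 and Col16a1 then had edgeR adjusted p-values of 0.0564, 0.0514, 0.0514 and 0.0623 in liver. With 3 libraries a group in fat, a difference that edgeR did not call is not shown to be absent.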

Other observations

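Among low-level genes of the collagen lists, chosen after their values were seen, Mmp13, a collagenase that cuts fibrillar collagen, was at 1.77 ± 0.993 CPM in vehicle liver and 0.173 ± 0.173 CPM under halofuginone (SD, n = 5), a fall of 3.41 on the log2 scale (SE 0.59, edgeR adjusted p 0.00611) with no overlap. Ctsk, a protease that degrades collagen, was at 0.709 ± 0.224 and 0.278 ± 0.138 CPM (−1.39, SE 0.37, edgeR adjusted p 0.0233), and the lysyl hydroxylase Plod2 at 1.07 ± 0.505 and 0.404 ± 0.256 CPM (−1.42, SE 0.44, edgeR adjusted p 0.0404), both with overlapping groups.

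Col20a1 and Col27a1 were also chosen after their values were seen. Col20a1 did not pass the filter in liver, where it was at 0.198, 0.1002, 0.280, 0.373 and 0.197 CPM in vehicle and at 0.199, 1.53, 0.859, 0.656 and 1.38 CPM under halofuginone, with halofuginone 1 alone inside the vehicle range. Without halofuginone 1 it passed the filter and edgeR called it higher. It passed through halofuginone libraries alone, so it had to be higher there to be tested. With all libraries DESeq2 called Col20a1 higher (2.00, adjusted p 0.00254). In fat it was the 1 chain whose halofuginone libraries all lay above vehicle, at 0.984 ± 0.257 and 1.52 ± 0.202 CPM (SD, n = 3), a log2 fold change of 0.63 that was not called (SE 0.42, edgeR adjusted p 0.571). Col27a1 was at 5.24 ± 1.37 and 3.37 ± 0.976 CPM in liver (SD, n = 5) and was not called by edgeR (−0.64, SE 0.24, adjusted p 0.0737). It was called lower by edgeR without halofuginone 1, and by DESeq2 with all libraries (−0.65, adjusted p 0.0464).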
